A study of Mus musculus with 90 samples.

Results

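Livers of mice given a control adeno-associated virus and a monoclonal antibody against the glucagon receptor were compared with livers of mice given the same virus and a control antibody. The groups were taken from the sample labels alone, 10 libraries labelled Control AAV + Gcgr mAb and 10 labelled Control AAV + Control mAb, which are 20 of the 90 liver libraries in the series. They belong to the second of its experiments, whose 40 libraries also hold 10 of Prkar1a KD + Control mAb and 10 of Prkar1a KD + Gcgr mAb. In those, a short hairpin RNA lowered Prkar1a, the regulatory subunit that holds protein kinase A (PKA) inactive. The first experiment gave a further pair of groups, Gcgr KD and Control, in which a hairpin RNA delivered by AAV8 lowered the receptor itself. Every library in the main comparison therefore carried the control virus, and the groups differed only in the antibody. The labels give no strain, age, sex, antibody dose or time of treatment. They also do not say that each replicate is a separate mouse, so the p-values measure the spread between these libraries.

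Glucagon is the pancreatic hormone that tells the liver to make glucose and to break down amino acids. Its receptor couples through the G protein Gs to adenylyl cyclase, and the cyclic AMP that results frees the catalytic subunits of PKA, which phosphorylate the transcription factor CREB. Genes for gluconeogenesis, amino acid catabolism and the urea cycle are long known as hepatic targets of this pathway, and loss of the signal is known to raise circulating amino acids and to enlarge the alpha cell mass. An antibody that blocks the receptor acts on the protein, so the receptor transcript is not its direct target.

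Total counts per library were 11550000 to 19250000 with the control antibody and 13890000 to 19480000 with the receptor antibody. Summed over 12 hepatocyte markers, the normalised level was 97616 to 110544 CPM (counts scaled to the library's total after TMM normalisation) with the control antibody and 85216 to 119362 CPM with the receptor antibody. The Y-linked Ddx3y was at 47.9 to 93.0 CPM in all 20 libraries and Xist at 0.889 CPM or less, the pattern of male liver. Of the receptor antibody libraries, replicate 2 stood apart, with a mean correlation to the others of its group of 0.935 against a group median of 0.976. Replicate 3 of that group held transcripts of the exocrine pancreas, its 7 acinar markers summing to 851 CPM against a group median of 12.8 CPM and at most 22.2 CPM in the controls. Control replicate 10 also correlated less with its group, at 0.96 against a median of 0.978. The calls that were lost without replicates 2 and 3 are named after the gene lists. RNA from whole tissue was measured, so fewer cells of a type and less RNA per cell cannot be told apart.

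The receptor antibody changed 1052 of 12847 tested genes by edgeR's quasi-likelihood test at an adjusted p under 0.05, and falls outnumbered rises. In all, 677 genes fell, which is 5.27% of those tested, and 375 rose, which is 2.92%. Most changes were moderate: 68 of the falls and 62 of the rises reached 2-fold, and the median log2 change was -0.35 among the falls, 0.46 among the rises and 0.01 over all tested genes. By sign alone, called or not, 6007 of the 12847 changes were negative and 6839 positive, the base for the sign counts of the lists below. For 49 of the genes that fell (0.381% of all tested) every antibody library lay below every control library, and for 11 of the genes that rose (0.0856%) every one lay above. Leaving out antibody replicates 2 and 3 together gave 786 falls and 508 rises. When the fit held only the 20 Control AAV libraries, 367 falls and 241 rises were called.

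The receptor transcript itself did not pass the test. Gcgr was at 145 to 192 CPM with the control antibody (median 159) and at 135 to 211 CPM with the receptor antibody (median 153). The ranges overlap almost wholly, and the log2 change was -0.02 ± 0.066 (SE, n = 10 a group; adjusted p = 0.868). Among the 40 tested genes of the path from receptor to CREB, 4 fell and 2 rose, and the list's median change was -0.04. These shares of 10% and 5% stand beside 5.27% and 2.92% of all tested genes. Without control replicate 10, 7 of the 40 fell. No G protein gene was called, with Gnas, which encodes the Gs alpha subunit, at a log2 change of -0.12 ± 0.072. Of the adenylyl cyclases Adcy6 fell, by 0.36 on the log2 scale, but not when replicates 2 and 3 were left out together (adjusted p = 0.057). Among the PKA subunits the catalytic Prkaca fell slightly, from a median of 66.5 to 59.8 CPM (log2 change -0.25 ± 0.074, adjusted p = 0.0279), while Prkacb stood at -0.02 and Prkar1a at -0.13, neither called. Prkaca lost its call in 5 of the 20 fits that each left out 1 library. Rapgef4, which encodes the cyclic AMP sensor Epac2, rose from 55.4 to 98.6 CPM (median 78.8) to 81.6 to 158 CPM (median 115), a log2 change of 0.56 ± 0.11 (adjusted p = 0.0008). Creb1 was not called, at 0.06 ± 0.085, and the coactivator Crebbp rose by 0.22.

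Pde4b and Crem, whose products are known to damp the cyclic AMP response, fell. Pde4b, a phosphodiesterase that degrades cyclic AMP and is itself induced by it, was at 12 to 24.2 CPM with the control antibody (median 20.3) and at 4.51 to 9.78 CPM with the receptor antibody (median 6.30). The groups did not overlap, and the log2 change was -1.51 ± 0.14 (adjusted p = 6.74e-10). It was the only 1 of 10 phosphodiesterase genes called, although 9 of the 10 had negative changes, among them Pde4d at -0.43 (adjusted p = 0.0662) and Pde7b at -0.45 (adjusted p = 0.0728). Crem, whose short product represses cyclic AMP targets, fell from a median of 18.7 to 12.5 CPM (log2 change -0.62 ± 0.12, adjusted p = 0.00069). Of 24 immediate early and cyclic AMP response genes, 2 fell (8.33%, against 5.27% of all tested genes) and 1 rose (4.17%, against 2.92%), and the list's median change was 0.04. Nr4a2, an orphan nuclear receptor induced by CREB, was the second fall besides Crem, from 0.259 to 1.95 CPM (median 1.2) to 0.137 to 0.574 CPM (median 0.449), a log2 change of -1.42 ± 0.29 (adjusted p = 0.000988). Fos rose by 1.47 ± 0.42 (adjusted p = 0.021), but without antibody replicate 2 the change was 0.85 and the adjusted p 0.132.

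CREB binds the cyclic AMP response element, whose core is TGACG. On the other strand it reads CGTCA. These 5 bases occur in many promoters, and the full element, the palindrome TGACGTCA, holds the core on both strands. The 250 bases before the transcription start are shown for 3 genes of the pathway that fell, Pck1, Pde4b (the first of its 4 listed starts, and the only one of them with a core in this window) and Nr4a2, for Fos, which has cores and rose, and for Got1, which has none and fell most among amino acid genes. Sequences are from RefSeq on build GRCm38.p6, read 5′ to 3′ on the gene's strand, with each core in capitals.
Pck1, chr2:173152823-173153072, plus strand: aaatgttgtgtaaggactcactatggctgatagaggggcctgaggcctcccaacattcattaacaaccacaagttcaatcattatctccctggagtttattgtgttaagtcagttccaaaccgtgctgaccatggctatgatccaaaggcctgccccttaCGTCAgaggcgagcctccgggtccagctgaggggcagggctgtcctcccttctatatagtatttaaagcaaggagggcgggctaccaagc
Pde4b, chr4:102421305-102421554, plus strand: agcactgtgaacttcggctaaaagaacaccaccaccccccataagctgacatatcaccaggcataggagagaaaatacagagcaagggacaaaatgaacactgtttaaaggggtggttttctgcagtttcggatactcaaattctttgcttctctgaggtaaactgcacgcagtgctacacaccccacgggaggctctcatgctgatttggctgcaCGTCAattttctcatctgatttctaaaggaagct
Nr4a2, chr2:57124004-57124253, minus strand: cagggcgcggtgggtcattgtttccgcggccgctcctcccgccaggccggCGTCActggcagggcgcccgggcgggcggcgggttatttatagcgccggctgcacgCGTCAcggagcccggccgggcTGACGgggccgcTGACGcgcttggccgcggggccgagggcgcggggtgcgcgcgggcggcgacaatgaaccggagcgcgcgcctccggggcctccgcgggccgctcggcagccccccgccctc
Fos, chr12:85473640-85473889, plus strand: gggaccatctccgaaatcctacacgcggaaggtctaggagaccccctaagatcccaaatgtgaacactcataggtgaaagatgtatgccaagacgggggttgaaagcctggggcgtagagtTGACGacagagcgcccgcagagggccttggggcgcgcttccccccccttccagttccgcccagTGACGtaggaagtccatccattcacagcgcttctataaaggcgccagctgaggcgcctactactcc
Got1, chr19:43524606-43524855, minus strand: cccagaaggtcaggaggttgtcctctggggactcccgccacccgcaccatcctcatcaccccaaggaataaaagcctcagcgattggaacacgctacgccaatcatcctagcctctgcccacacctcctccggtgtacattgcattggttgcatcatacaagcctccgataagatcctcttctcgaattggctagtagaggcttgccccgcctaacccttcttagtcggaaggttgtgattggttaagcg
The core lies 90 bases before the start of Pck1 and 34 before that of Pde4b, counted to its first base. Nr4a2 has 4 cores, at 200, 144, 123 and 111 bases before the start, and Fos has 2, at 129 and 66. Searched on both strands in windows of 250 bases before to 50 after the start, a core was present in 33.8% of the 539 falling genes with a listed promoter, in 20.8% of the 283 rising ones and in 34.8% of all 10236 tested genes with one. The palindrome was in 5.19%, 1.06% and 3.47%. These shares are given as a description, with no test of their difference.

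Amino acid catabolism held more falls than any other list by number. Of 73 tested enzymes 24 fell (32.9%, against 5.27% of all tested genes) and none rose, and 62 of the 73 had negative changes, with a median of -0.18. Got1, the cytosolic aspartate aminotransferase, had the smallest p of any gene. It was at 114 to 206 CPM in the controls (median 156) and at 26.1 to 44.4 CPM with the receptor antibody (median 33.9). The highest antibody library thus lay far below the lowest control, and the log2 change was -2.22 ± 0.099 (adjusted p = 2.27e-20). Its mitochondrial counterpart Got2 fell by only 0.16, a call that 7 of the 20 fits leaving out 1 library lost. Gls2, the liver glutaminase that releases ammonia from glutamine, went from 217 to 327 CPM (median 281) to 63.6 to 138 CPM (median 93.9), again with no overlap (log2 change -1.56 ± 0.10, adjusted p = 1.20e-14). Gpt and Gpt2, the alanine aminotransferases, were not called, at -0.08 ± 0.087 and -0.04 ± 0.098.

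Oat, which turns ornithine into glutamate semialdehyde, had control values of 526 to 1327.9 CPM (median 927) and antibody values of 38.9 to 542 CPM (median 331). The groups touched only at their edges, and the log2 change was -1.67 ± 0.21 (adjusted p = 4.15e-07). Sds, serine dehydratase, fell from a median of 89.9 CPM (64.5 to 161) to 36.7 CPM (12.7 to 56.2), with no overlap and a log2 change of -1.49 ± 0.20. Its relative Sdsl fell by 0.87. Tat, the tyrosine aminotransferase that opens tyrosine breakdown, fell from a median of 558 to 309 CPM (log2 change -0.80 ± 0.12, adjusted p = 1.65e-05). Further down the same route Hgd, homogentisate dioxygenase, was at 540 to 629 CPM in the controls and at 222 to 421 CPM with the receptor antibody, a log2 change of -0.65 ± 0.079. The tryptophan enzymes Tdo2, Kynu and Acmsd fell by 0.44, 0.50 and 0.59 on the log2 scale.

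Of 10 methionine and cysteine enzymes 2 fell, and 6 had negative changes. These were Cbs and Cth, which pass homocysteine sulfur to cysteine and fell by 0.78 and 0.57, and the control and antibody ranges of Cbs (326 to 457 and 173 to 295 CPM) did not overlap. Of 13 serine, glycine and threonine enzymes 4 fell, among them Gnmt, the glycine methyltransferase, by 0.67, and Gldc, the glycine decarboxylase, by 0.61, beside Sds and Sdsl. Among enzymes for lysine and branched-chain amino acids Aass fell by 0.46, Pcca by 0.40, Bckdha by 0.28 and Auh by 0.21. All 18 tested members of that subgroup had negative changes and 4 were called. The remaining falls were Aldh4a1 (-0.40), Agxt2 (-0.37), Uroc1 (-0.35), Agxt (-0.32) and Ftcd (-0.27). Auh lost its call in 14 and Agxt in 10 of the 20 fits without 1 library. With the 20 Control AAV libraries alone in the fit 18 of the 73 enzymes fell, and without replicates 2 and 3 together 26 did.

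**Figure D1:**
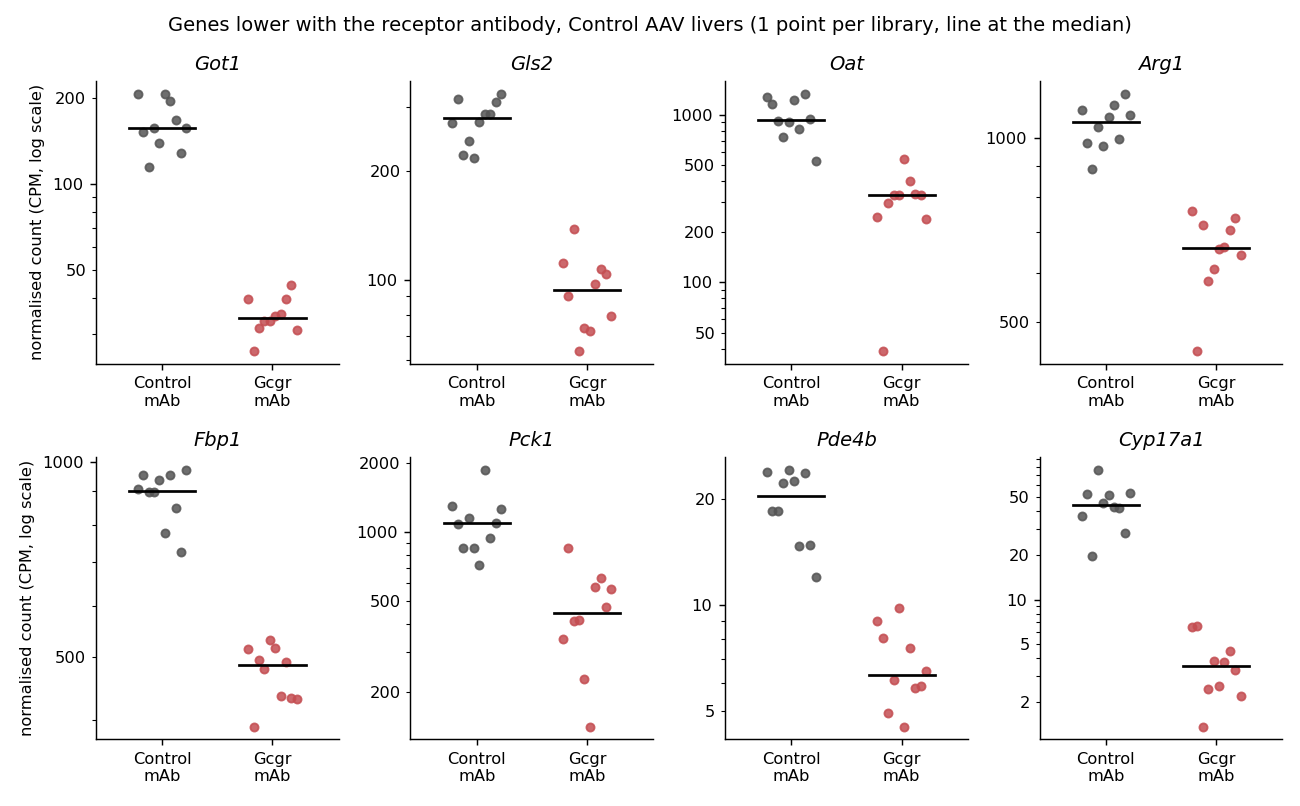
Normalised counts (CPM, log axis) of 8 genes that fell, with 1 point per library, 10 with the control antibody in grey and 10 with the receptor antibody in red, and a line at each median. The groups do not overlap for Got1, Gls2, Arg1, Fbp1, Pde4b and Cyp17a1, and overlap at the edges for Oat and Pck1.

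Within the urea cycle 5 of 10 tested genes fell (50%, against 5.27% of all tested genes) and none rose. Arg1, arginase, which releases urea, went from 889 to 1179.7 CPM (median 1060.9) to 448 to 760 CPM (median 659), with no overlap (log2 change -0.68 ± 0.082, adjusted p = 1.41e-07). Asl, argininosuccinate lyase, fell by 0.50 and Ass1, argininosuccinate synthase, by 0.97 ± 0.27. The controls of Ass1 ranged widely, from 623 to 1963.9 CPM, and overlapped the antibody values of 263 to 1011 CPM (adjusted p = 0.0168). The mitochondrial ornithine carrier Slc25a15 fell by 0.61 and the glutamate carrier Slc25a22 by 0.75, both with no overlap between groups. The first step of the cycle was not called: Cps1, carbamoyl phosphate synthetase, stood at -0.30 ± 0.14 (adjusted p = 0.182), its activator enzyme Nags at -0.11 and Otc at 0.04.

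Amino acid carriers moved in both directions. Of 29 tested, 5 fell (17.2%, against 5.27% of all tested genes) and 3 rose (10.3%, against 2.92%). Without control replicate 1, or without antibody replicate 9, 5 rose. Slc7a2, a cationic amino acid carrier that brings arginine and ornithine into hepatocytes, fell from 324 to 732 CPM (median 511) to 150 to 284 CPM (median 253), a log2 change of -1.07 ± 0.12 (adjusted p = 1.91e-08). The sodium-coupled neutral and system N carriers Slc38a4 and Slc38a3 fell by 0.49 and 0.41, Slc1a4 by 0.70 and Slc3a1 by 0.46. Slc38a2, the adaptive system A carrier, was not called (0.06 ± 0.11). Slc7a5, the large neutral amino acid exchanger, rose at a low level, from 0.897 to 1.48 CPM (median 1.18) to 1.24 to 2.55 CPM (median 1.92), a log2 change of 0.66 ± 0.16 (adjusted p = 0.00548). Slc43a2 rose by 0.69 and the taurine carrier Slc6a6 by 0.34. With the 20 Control AAV libraries alone 2 carriers fell, Slc7a2 and Slc38a4.

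Of 30 tested gluconeogenesis genes 12 fell (40%, against 5.27% of all tested genes) and none rose, with a median of -0.17. The falls were 10 of 18 enzymes and 2 of 5 carriers. Fbp1, fructose-1,6-bisphosphatase, was at 726 to 972 CPM in the controls (median 902) and at 391 to 532 CPM with the receptor antibody (median 486), with no overlap (log2 change -0.91 ± 0.071, adjusted p = 1.94e-12). Pck1, the cytosolic phosphoenolpyruvate carboxykinase whose promoter core is shown above, fell from 723 to 1883.4 CPM (median 1094.4) to 142 to 854 CPM (median 443), a log2 change of -1.27 ± 0.18 (adjusted p = 4.15e-06). Pcx, pyruvate carboxylase, fell by 0.23 and the mitochondrial pyruvate carrier gene Mpc1 by 0.35. Reversible steps shared with glycolysis fell too, Eno1 by 0.54, Ldha by 0.38, Gapdh by 0.35, Mdh2 by 0.30 and Pgk1 by 0.26, as did Gpd1 by 0.48 and the dicarboxylate carrier Slc25a10 by 0.68. G6pc, the last step, stood at -0.73 ± 0.24 and narrowly missed the threshold (adjusted p = 0.0537); 5 of the 20 fits without 1 library called it. Its controls spanned 67.2 to 297 CPM, against 67.0 to 176 CPM with the receptor antibody. None of the 7 regulators was called, among them Ppargc1a at -0.16 ± 0.17 and Foxo1 at -0.07. Of 9 glycolysis genes 1 fell (11.1%, against 5.27% of all tested genes), Gckr, the glucokinase regulator, by 0.25. Among 18 glycogen genes 3 fell (16.7%) and 1 rose (5.56%, against 2.92% of all tested genes). Ppp1r3g, a subunit that targets protein phosphatase to glycogen, fell by 2.38 at a low level, Ugp2 by 0.50 and Gaa by 0.19. With the 20 Control AAV libraries alone 1 of 17 tested glycogen genes fell and none rose.

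**Figure D2:**
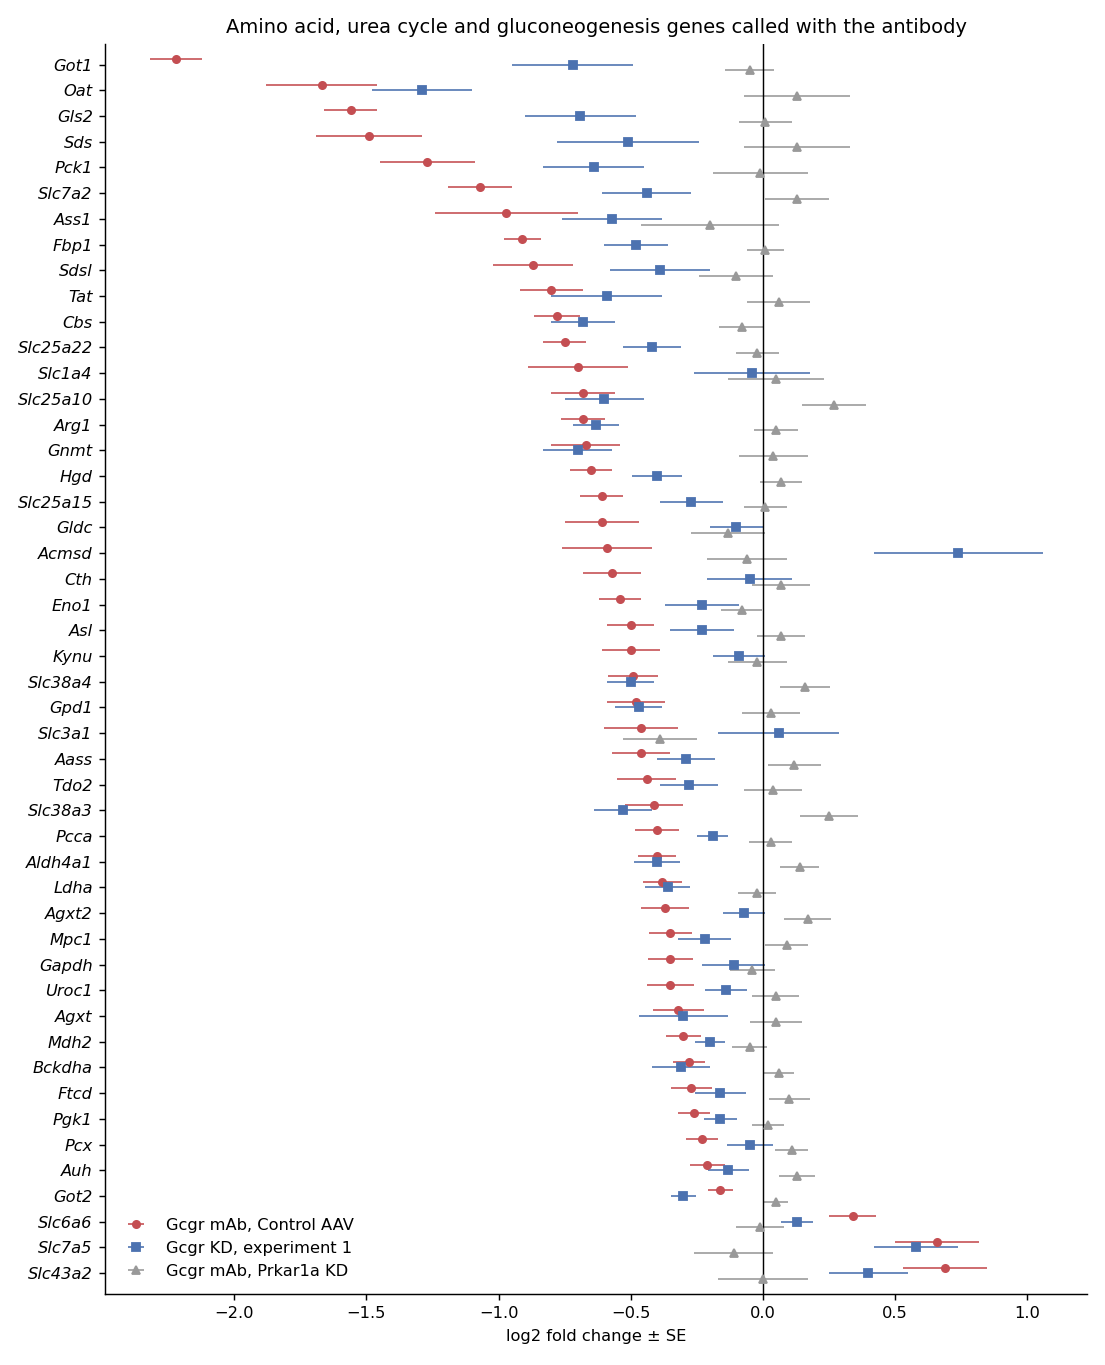
Log2 fold changes ± SE of genes for amino acid catabolism, the urea cycle, amino acid transport and gluconeogenesis called with the antibody in Control AAV livers (red), beside their changes with Gcgr KD in the first experiment (blue) and with the antibody in Prkar1a KD livers (grey). The red points were chosen for being called. The grey points gather near 0, and most blue points lie on the same side of 0 as the red.

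Of 41 tested genes of fatty acid oxidation and ketogenesis 17 fell (41.5%, against 5.27% of all tested genes) and none rose. In all, 38 had negative changes, and the list's median was -0.27. Crat, carnitine acetyltransferase, changed most, from a median of 73.0 to 37.4 CPM (log2 change -0.90 ± 0.11, adjusted p = 1.41e-07). The peroxisomal thiolase Acaa1b fell by 0.65 and the short-chain dehydrogenase Acads by 0.42. Bdh1, which interconverts the ketone bodies, fell by 0.33. The nuclear genes of oxidative phosphorylation moved less, all 40 with negative changes, a median of -0.17 and 14 called, such as Ndufa10 and Cox7a2 at -0.31. That count rested on small changes near the threshold: it was 3 with the 20 Control AAV libraries alone. It was 7 without antibody replicate 2 or 5 or control replicate 2 or 7, 8 or 9 without antibody replicate 1, 7 or 10 or control replicate 5 or 10, and 24 without antibody replicate 3. The share of counts from mitochondrial genes was 14.07% to 19.72% in the controls and 13.31% to 20.65% with the receptor antibody. The 43 cytosolic ribosomal protein genes had no call and a median of -0.01.

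Of 24 lipogenesis genes 5 fell (20.8%, against 5.27% of all tested genes) and none rose. Elovl5, which elongates polyunsaturated fatty acids, fell by 1.12 and the NADPH source Me1 by 0.86. The desaturases Fads1 and Fads2 fell by 0.82 and 0.81, and Dgat1 by 0.31. Fads1 went from 614 to 931 CPM (median 730) to 330 to 532 CPM (median 411), with no overlap (adjusted p = 6.82e-09). Without control replicate 9, which was the lowest of its group for Elovl5, 8 of the 24 fell. Lipid droplet genes gave 8 falls (44.4%) and 1 rise (5.56%, against 2.92% of all tested genes) among 18. Cidea, which enlarges lipid droplets, fell from 3.43 to 52.3 CPM (median 39.6) to 0.831 to 12.2 CPM (median 4.51), a log2 change of -2.58 ± 0.38 (adjusted p = 1.02e-05). Mogat1 fell by 1.51, Cidec by 1.46, Plin4 by 1.18 and Plin2, the coat protein of hepatic droplets, by 0.76, while adipsin, Cfd, rose by 1.35. Cidec lost its call in 15 of the 20 fits without 1 library, and 5 of the 18 fell with the 20 Control AAV libraries alone. Cfd was not called in that last fit, nor with DESeq2.

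The largest of the named falls was that of Mmd2, a membrane protein of the progestin and adipoQ receptor family. It was at 5.16 to 13.0 CPM in every control library (median 7.43) and at 0.0554 to 0.890 CPM with the receptor antibody (median 0.158). The fitted log2 change was -5.04 ± 0.32 (adjusted p = 1.20e-14). Cyp17a1, a steroid hydroxylase expressed in mouse liver, went from 19.8 to 76.5 CPM (median 43.7) to 1.37 to 6.65 CPM (median 3.54), a log2 change of -3.58 ± 0.30 (adjusted p = 3.87e-11). Ctcflos, a long noncoding RNA at chr2:173124749-173133204, upstream of Pck1 on the same chromosome (chr2:173153073-173159274), fell from 12 to 19.5 CPM (median 15.3) to 1.93 to 5.66 CPM (median 4), a log2 change of -2.04 ± 0.17 (adjusted p = 1.88e-11). The groups did not overlap. Whether the counting used strand is not given in the sources used here, so reads from genes on the other strand at that place cannot be told apart. The other large falls were Gprc5b (-3.25), Tmem266 (-3.07), Cyp2a22 (-2.27), Nptx1 (-2.24) and the trehalase gene Treh (-2.08). Gprc5b was at 0.868 to 16.5 CPM in the controls and at 0.386 to 1.44 CPM with the receptor antibody. Cyp2a22 was at 5.21 to 49.5 and 2.07 to 16.1 CPM, and both genes overlapped between groups. Cyp2a22 has close paralogs among which reads could be split, and Tmem266 and Nptx1 reached at most 1.09 and 1.36 CPM in any control library. Both passed the level set for naming the largest changes through the Prkar1a KD libraries, where they averaged 3.84 and 14.7 CPM with the control antibody.

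Of 28 tested genes with higher expression in male than in female mouse liver 6 rose and 2 fell. These are 21.4% and 7.14%, against 2.92% and 5.27% of all tested genes. In all, 25 of the 28 had positive changes and the median was 0.98. With the 20 Control AAV libraries alone in the fit 4 rose. Leaving out 1 library gave 4 to 9 rises. The best measured was Mup20, a major urinary protein secreted by the male liver, at 4457.1 to 7499.5 CPM in the controls (median 5957.9) and 8875.3 to 25813.9 CPM with the receptor antibody (median 14212.9). No library overlapped, and the log2 change was 1.41 ± 0.17 (adjusted p = 9.67e-08). Other urinary protein genes spread far more: Mup11 ranged from 9.71 to 403 CPM in the controls (median 35.0) and from 2.71 to 3052.3 CPM with the receptor antibody (median 616), a log2 change of 3.13 ± 0.95 (adjusted p = 0.0339). Antibody replicate 2 was the lowest of all 20 libraries for Mup11, Mup16 and Mup2, while its Mup20 level lay above every control. Mup19, Mup16 and Mup2 rose by 2.45, 2.12 and 1.69. These genes are near-identical copies, so the division of reads among them is uncertain, and Mup11 lost its call in 9 of the 20 fits without 1 library. Selenbp2, a selenium-binding protein, rose from 19.4 to 105 CPM (median 39.3) to 88.6 to 819 CPM (median 371), a log2 change of 2.87 ± 0.37 (adjusted p = 1.01e-06). The complement genes C6 and C8b rose by 0.92 and 0.86. Elovl3 and Ugt2b1, also male-biased, went the other way and fell by 1.61 and 0.62. Among 16 female-biased genes Cyp17a1 and the organic anion carrier Slc22a27 fell (12.5%) and Atp6v0d2 rose (6.25%). Socs2, which growth hormone induces through STAT5, rose by 1.27 and Igfals by 0.44, while Stat5a fell by 0.31. With the 20 Control AAV libraries alone, none of the 14 tested growth hormone and STAT5 genes was called.

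**Figure D3:**
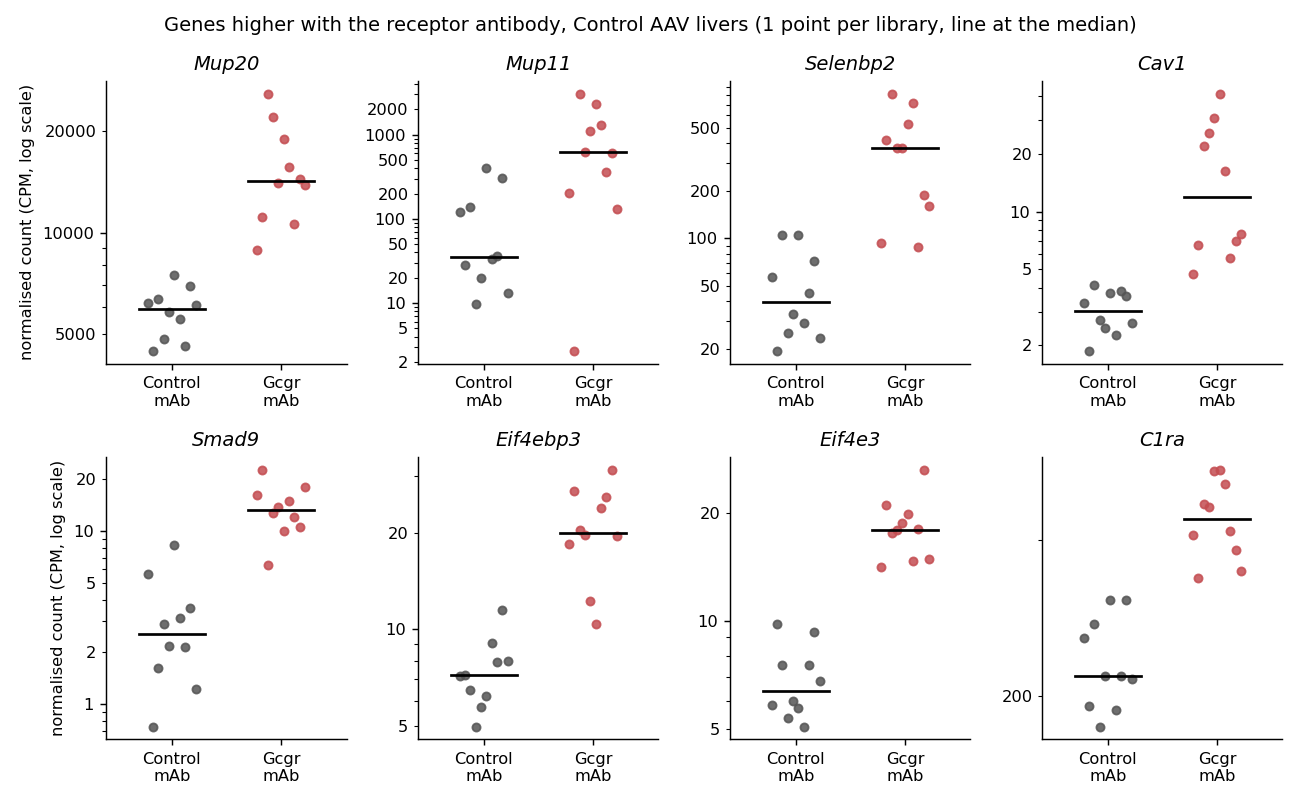
Normalised counts (CPM, log axis) of 8 genes that rose, with 1 point per library, 10 with the control antibody in grey and 10 with the receptor antibody in red, and a line at each median. Mup20, Cav1, Eif4e3 and C1ra do not overlap between groups, while Mup11 spans 2.71 to 3052.3 CPM with the receptor antibody.

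Further rises came from genes outside the metabolic lists. Cav1, the caveolar coat protein, was at 1.87 to 4.15 CPM in the controls (median 3.01) and 4.70 to 41.2 CPM with the receptor antibody (median 11.9), a log2 change of 2.46 ± 0.31 (adjusted p = 3.73e-07). Eif4ebp3 and Eif4e3, a repressor and a cap-binding relative of the translation factor eIF4E, rose together, Eif4ebp3 from a median of 7.19 to 20.1 CPM (log2 change 1.49 ± 0.15) and Eif4e3 from 6.40 to 17.9 CPM (1.40 ± 0.14), with adjusted p of 3.41e-09 and 4.16e-09. Smad9, a signal carrier of bone morphogenetic proteins, rose from a median of 2.53 to 13.2 CPM (2.14 ± 0.37, adjusted p = 0.00015). C1ra, a complement protease, rose from 185 to 257 CPM to 272 to 360 CPM (0.53 ± 0.069). Serpina4-ps1 and the defensin Defb1 rose by 1.80 and 1.66. H19, an imprinted noncoding RNA, had the largest fitted rise among the named genes, 3.45 ± 0.96. Antibody replicate 2, however, was at 42.9 CPM, beside a group median of 1.79 CPM. Without that library the change was 1.79 and was not called (adjusted p = 0.202).

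Of 25 tested bile acid genes 4 rose (16%, against 2.92% of all tested genes) and 1 fell (4%, against 5.27%). Among the 13 for synthesis 3 rose and 1 fell, with a median change of 0.07. Cyp7a1, the rate-limiting enzyme of bile acid synthesis, went from 48.7 to 176 CPM (median 84.6) to 67.5 to 286 CPM (median 234), a log2 change of 1.21 ± 0.25 (adjusted p = 0.00164). Cyp2c70, which makes the mouse's muricholic acids, was at 141 to 298 CPM in the controls (median 171) and 351 to 584 CPM with the receptor antibody (median 447), with no overlap (1.26 ± 0.20, adjusted p = 2.3e-05). Cyp27a1 rose by 0.46 and the bile acid receptor Nr1h4 by 0.26, while Scp2 fell by 0.33. Antibody replicate 2 was the lowest of its group for Cyp7a1, Cyp27a1 and Nr1h4, and without it 7 bile acid genes rose. The lipoprotein genes Apom, Scarb1 and Lipc rose by 0.47, 0.38 and 0.35, 3 of 21 (14.3%, against 2.92%) with no falls.

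Secreted factors rose more often than they fell, 8 against 1 of 35. These are 22.9% and 2.86%, beside 2.92% and 5.27% of all tested genes. Hamp, hepcidin, the hormone that limits iron release, rose from a median of 194 CPM (122 to 454) to 373 CPM (268 to 805), a log2 change of 1.05 ± 0.24 (adjusted p = 0.00315). Inhba, a subunit of activin, rose by 1.17 ± 0.24, Enho, adropin, by 1.34 ± 0.33 and Serpinb1a, which is known to stimulate beta cell growth, by 1.37 ± 0.31. Agt, angiotensinogen, fell by 0.19. Fgf21 was not called, at -0.24 ± 0.46; antibody replicate 2 was at 28.6 CPM and the group median at 3.25 CPM. Without that library its change was -1.11 (adjusted p = 0.0623). Acute phase genes gave 5 rises (16.7%) and no fall among 30. The lipopolysaccharide receptor Cd14 rose by 1.46, Orm3 by 1.34, Serpina3n by 0.45 and ceruloplasmin, Cp, by 0.40. Orm3 has close copies among which reads could be split. Beside these, 12 of 12 macrophage markers had positive changes, with 1 called (Adgre1, 0.81) and a median of 0.48. Their summed level was 164 to 345 CPM in the controls (median 190) and 173 to 688 CPM with the receptor antibody (median 264), with no marker at 0. The part of macrophage content in the secreted and acute phase genes was not tested. Leaving out replicates 2 and 3 took the median of the macrophage markers to 0.26 and left 6 secreted and 7 acute phase genes rising.

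**Figure D4:**
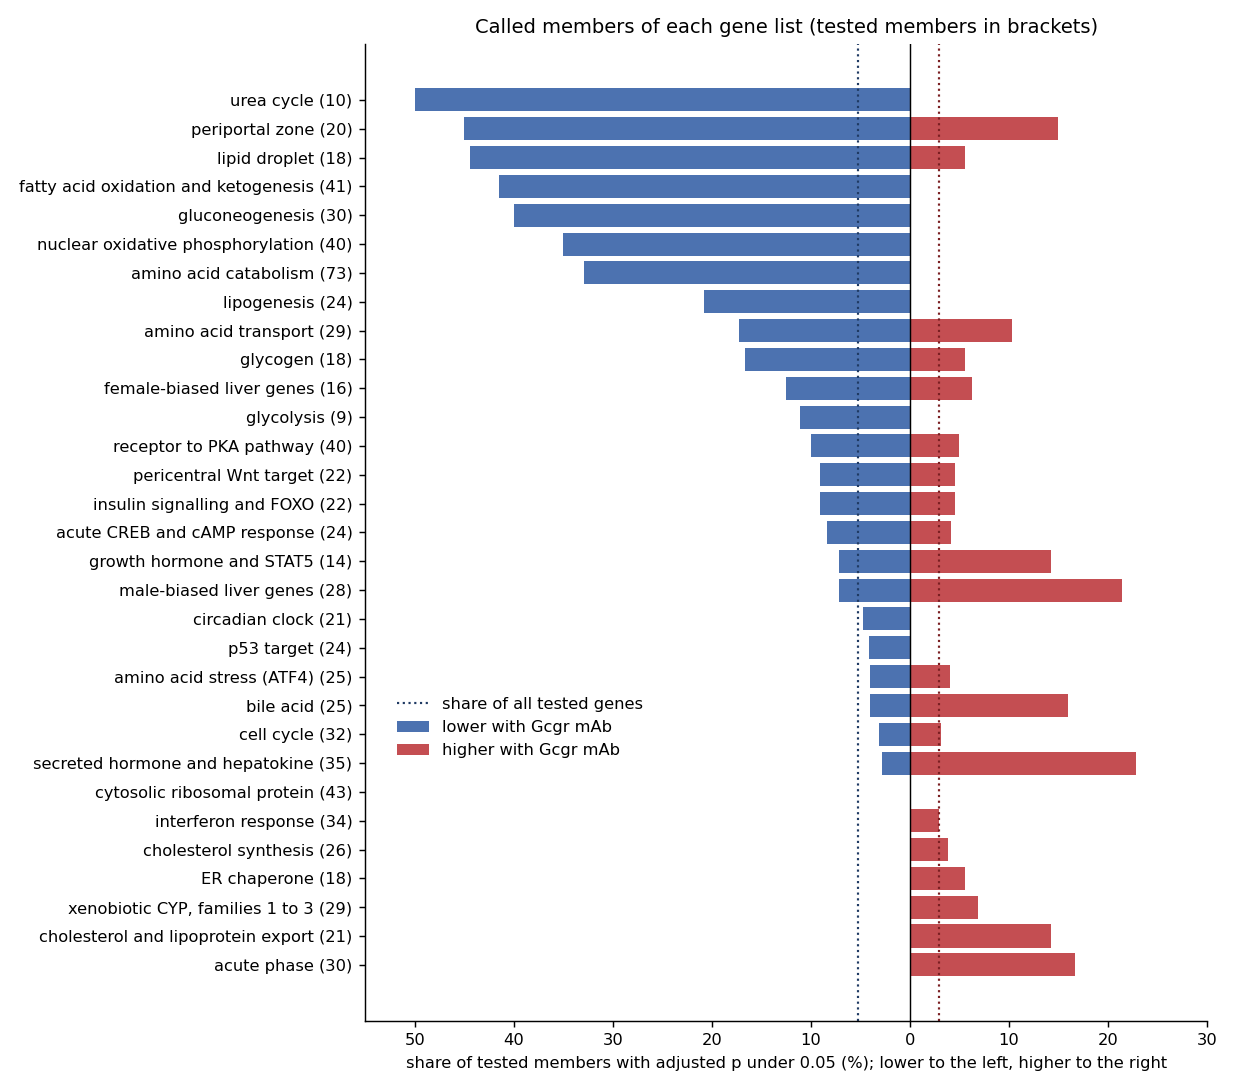
Share of the tested members of each gene list (number in brackets) that fell (blue, left) or rose (red, right) at an adjusted p under 0.05, with dotted lines at the shares of all tested genes, 5.27% falling and 2.92% rising. The urea cycle, periportal, lipid droplet, fatty acid oxidation, gluconeogenesis, oxidative phosphorylation and amino acid catabolism lists reach 32.9% to 50% falling.

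Genes that mark the periportal zone of the lobule, where gluconeogenesis and urea synthesis are concentrated, fell in 9 of 20 cases and rose in 3, with a median of -0.50. These are 45% and 15%, against 5.27% falling and 2.92% rising among all tested genes. Of the 9, Sds, Sdsl, Pck1, Arg1, Ass1, Gls2 and Gldc are in the lists above, and Etnppl and Uox fell by 1.02 and 0.52. Cdh1, E-cadherin, a periportal adhesion protein that is not a metabolic enzyme, rose by 1.37, and Ctsc by 0.35. With the 20 Control AAV libraries alone 9 of the 20 periportal genes fell and 1 rose. Of 22 pericentral genes Oat and Slc22a3 fell (9.09%) and Cyp27a1 rose (4.55%), with a median of 0.01. Insulin signalling genes gave a rise of Akt1 (0.23) and falls of Irs1 (-0.38) and Pck1 among 22, shares of 4.55% and 9.09%. Xenobiotic cytochromes of families 1 to 3 had 2 rises among 29 (6.9%), Cyp2c54 (1.46) and Cyp2c23 (0.50), and 6 without antibody replicate 2. The amino acid stress list of ATF4 targets, 25 genes, had 1 rise, Psat1 (1.11, not called without replicate 2), and 1 fall, Atf5 (-0.70). Ifi47 was the only called gene of 34 interferon-induced ones, at 0.58, although 32 of the 34 were positive and 6 were called with the 20 Control AAV libraries alone. Xbp1 rose by 0.30 in the chaperone list, Ccne2 rose by 0.67 and E2f1 fell by 0.47 in the cell cycle list, Rora fell by 0.23 in the clock list and Dglucy by 0.24 in the p53 list.

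Markers of other cell types gave few calls. No hepatocyte marker was called, with 6 changes positive and 6 negative. Stab2, of the sinusoidal endothelium, rose by 0.62, and all 12 endothelial markers were positive, summing to 172 to 362 CPM in the controls and 240 to 408 CPM with the receptor antibody. No marker of stellate cells, cholangiocytes, B cells, neutrophils or monocytes was called, although most of their changes were positive. Positive were 10 of 12 tested stellate markers (median change 0.17), 6 of 7 of cholangiocytes (0.58) and 5 of 5 of B cells (0.46). So were 3 of 3 tested neutrophil markers (0.38) and 8 of 8 of monocytes and dendritic cells (0.47). Of 8 tested T and NK cell markers 7 were positive (0.52). Cd4 rose by 1.05 from a median of 0.738 CPM, and the erythroid Alas2 fell by 0.75, its 7 markers summing to 414 to 1153 CPM and 368 to 987 CPM. Cfd is also the adipocyte list's only tested gene. The acinar elastase Cela1 was called higher at 1.35 ± 0.42 with replicate 3 at 164 CPM, and without that library the change was 0.36 (adjusted p = 0.384).

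Some of these calls depended on single libraries. Without antibody replicates 2 and 3 together 17 of the 159 named genes were no longer called: Adcy6, Prkaca, Crebbp, Fos, H19, Auh, Got2, Pcx, Cidec, Psat1, Dglucy, Cyp2c23, Cdh1, Stat5a, Adgre1, Cd4 and Cela1. Their adjusted p ran from 0.0506 for Got2 to 0.301 for Psat1 in edgeR's test. The log2 changes of H19, Fos, Psat1 and Cela1 dropped to 1.94, 0.94, 0.48 and 0.47. Without replicate 2 alone Socs2 stood at 0.82 and was not called either (adjusted p = 0.0609), and without replicate 3 alone Mup11 and Rora were not (adjusted p = 0.056 and 0.0556). Of the 20 fits that each left out 1 library, 14 lost the call of Cyp2c23, 12 that of E2f1, 12 that of Cd4, 11 that of Irs1 and 10 each those of Rora, Psat1 and Adgre1. Stat5a and Cela1 lost theirs in 8, Slc3a1 in 7, Mup19 in 4, Nr1h4 and Slc22a27 in 3, and Elovl3 and Dglucy in 2. Mup16, Acmsd, Gckr, Ctsc and Crebbp lost theirs in 1, without control replicates 2, 1 and 8, antibody replicate 5 and control replicate 3 in that order.

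The same antibody was given to livers in which Prkar1a had been knocked down. Prkar1a itself was at 97.8 to 135 CPM in the Control AAV livers with the control antibody and at 28.6 to 35.1 CPM in the Prkar1a KD livers with it. There, the receptor antibody changed no gene at an adjusted p under 0.05 in the edgeR test (0% of 12847, smallest adjusted p = 0.447), and 846 genes, 6.59%, had an unadjusted p under 0.05, against 3005 with Control AAV. The difference between the antibody's effects in the 2 settings, tested as an interaction, was called for 524 genes, 4.08%. Of the 677 falls with Control AAV 308 (45.5%) had a called difference, and of the 375 rises 110 (29.3%). These shares are read from genes chosen on libraries that also enter the interaction. The median change in Prkar1a KD was 0.04 for the genes that fell with Control AAV and -0.01 for those that rose.

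Single genes show the contrast. Got1 was at 608 to 858 CPM with Prkar1a KD and the control antibody and at 546 to 817 CPM with the receptor antibody, a log2 change of -0.05 against -2.22 with Control AAV (adjusted p of the difference 4.46e-15). Pck1 was at 5837.6 to 6971.2 and 5546.9 to 7021.1 CPM there, a change of -0.01 (adjusted p of the difference 0.00211). Mmd2, all but lost with Control AAV and the receptor antibody, was at 54.4 to 103 and 42.5 to 122 CPM with Prkar1a KD. For Pde4b, Cyp17a1, Gls2, Fbp1, Arg1, Selenbp2, Cav1, Eif4e3 and Mup20 the difference was also called, with changes in Prkar1a KD between -0.07 and 0.23. For Mup11, Mup16, Mup19, H19, Cfd and Cidea it was not called, and with Prkar1a KD their group medians were 12 CPM or less. Mup11 had medians of 3.08 CPM with the control antibody and 12 CPM with the receptor antibody there, and Mup16 of 2.03 and 3.66 CPM. Mup19 had a median of 0 in both groups, and H19 had medians of 0.288 and 0.634 CPM with 1 receptor antibody library at 41.9 CPM. Cfd reached at most 0.222 and 0.459 CPM, and Cidea at most 0.117 and 0.41 CPM, so no change of either is read there. The difference was also not called for some genes at higher levels with Prkar1a KD. Median levels there were 88.4 and 122 CPM for Mup2, 45.9 and 40.1 CPM for Crem and 318 and 267 CPM for Gldc. The interaction test gave these 3 adjusted p of 0.36, 0.12 and 0.139.

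In the first experiment the receptor was lowered by a hairpin RNA, in other livers and with other controls. Gcgr fell there by 1.91 ± 0.10 on the log2 scale (adjusted p = 1.22e-20), and 588 of 13574 tested genes fell (4.33%) and 393 rose (2.9%). Of the antibody's falls tested in both experiments, 177 of 675 (26.2%) also fell with Gcgr KD, which is 30.4% of the 583 knockdown falls. Of its rises 74 of 374 (19.8%) also rose, 19.7% of the 375 knockdown rises. The opposite call was rare, 1 gene and 2 genes. Falls with the antibody had a median change of -0.19 with Gcgr KD, and 582 of 675 shared the sign. Rises had a median of 0.21, and 335 of 374 shared it. Both sets were chosen by their change with the antibody, and the share of all genes agreeing in sign was not counted. Over 12746 genes the log2 changes of the 2 experiments correlated at 0.5, as a description across genes, which are not independent replicates.

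Members of the amino acid and gluconeogenesis lists fell in both experiments. So did 10 of 40 oxidative phosphorylation genes and 7 of 41 for fatty acid oxidation and ketogenesis. Of 34 interferon-induced genes 14 rose with Gcgr KD, and none rose in both. With Gcgr KD 22 of 73 amino acid catabolism genes fell, 8 of them also with the antibody, and Oat (-1.29), Gls2 (-0.69), Cbs (-0.68), Gnmt (-0.70), Hgd (-0.40), Aldh4a1 (-0.40), Got2 (-0.30) and Pcca (-0.19) were these. Got1 was at -0.72 with Gcgr KD and just missed the threshold (adjusted p = 0.0507), against -2.22 with the antibody; the difference between experiments was not tested. Arg1 fell by 0.63 with Gcgr KD and by 0.68 with the antibody. Pck1 (-0.64), Fbp1 (-0.48), Ldha (-0.36), Gpd1 (-0.47), Mdh2 (-0.20) and Slc25a10 (-0.60) fell in both, as did Pde4b (-0.85), Ctcflos (-1.28) and Fads1 (-0.70). Mup20 (1.17), Eif4e3 (0.97), Cav1 (1.34), Defb1 (2.16), Cd14 (0.97), Inhba (0.66), Slc7a5 (0.58) and Cdh1 (1.16) rose in both. Some antibody changes were not called with Gcgr KD: Mmd2 stood at -0.29 (adjusted p = 0.798) and Cth at -0.05 with Gcgr KD. Cfd rose with the antibody, a call not made by DESeq2 or with the Control AAV libraries alone, and fell with Gcgr KD, by 1.91. Rapgef4, higher with the antibody, was at 0.06 with Gcgr KD (adjusted p = 0.86).

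**Figure D5:**
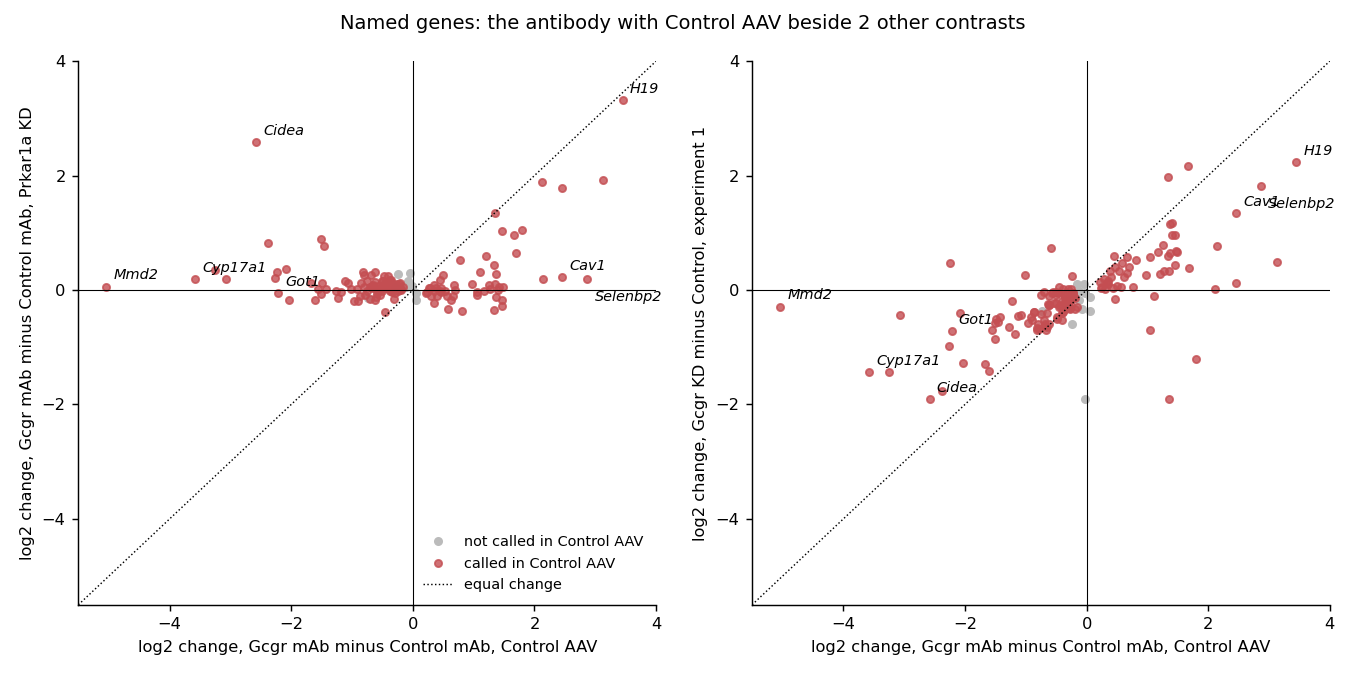
Log2 changes of the named genes with the receptor antibody in Control AAV livers (x axis) against the antibody in Prkar1a KD livers (left, y axis) and against Gcgr KD in the first experiment (right, y axis), 1 point per gene, red where the gene was called with Control AAV. The red points were chosen by their x value. On the left most lie near 0 on the y axis and on the right most share the sign of the x axis.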

How the data were processed

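Poly(A) RNA of mouse liver was sequenced. The authors summarised the reads into expected counts per gene and library and deposited 1 table of these for each experiment. Per the submitters' processing notes, bcl2fastq 2.17, FastQC and the mouse build GRCm38 (mm10) were used; which aligner and counter were run, and whether with strand, is not given in the sources used here. Of the entries in the table of experiment 2, 8.55% had a fractional part, so the counts were rounded to whole numbers. Gene IDs were matched to symbols in a RefSeq table (24375 of 24475).

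Experiment 2's 40 libraries were fitted together with edgeR 4.0.16 (filterByExpr, TMM scaling, robust quasi-likelihood test; R 4.3.3) to share 1 estimate of the spread, with 36 residual degrees of freedom and 12847 genes tested. The 20 Control and Gcgr KD libraries of experiment 1 were compared in that experiment's own fit, with 13574 genes. P-values were adjusted over all genes tested by the Benjamini-Hochberg method, with 0.05 as the threshold for rose, fell and called. CPM were scaled with the TMM factors. SE is the standard error of a log2 fold change. The fit was tested on simulated data.

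Genes were named by rule: 7 genes of the receptor pathway and 16 hepatic genes; the 10 largest rises and 10 largest falls that were called, averaged a log2 CPM of 1 or more over the 40 libraries, bore a symbol and had 9 or 10 libraries of at least 1 group beyond the other group's median; the called members of the lists (up to 4 a direction, or every one for the amino acid, urea cycle and gluconeogenesis lists); the called genes of the receptor and CREB lists; and the 5 smallest p-values in each direction. A few further list members were named after their values were seen. A few genes that the rule names are not reported here. The groups and the gene lists were chosen with earlier results of these data known.

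Alternatives were RLE scaling, no filter on low counts, DESeq2 1.42.0, limma 3.58.1 with voom, the Control AAV libraries alone, the replicate number as a block, and each library left out in turn. Leaving out antibody replicates 2 and 3 together was chosen after seeing the data.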

Additional observations from a re-analysis of the deposited data

Results flagged for a closer look

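In 54 of 318 sets of 10 libraries examined (the 159 named genes in each group), 1 library lay apart from the others by more than the Dixon critical value for 10 samples allows. Chance gives about 5 in 100 such sets. Sets of the same group share their 10 libraries, so the flags are not independent of each other. The distances were taken on a log scale, and the values printed are normalised counts in CPM. Antibody replicate 2 was the lowest of its group for 32 genes, among them 90.6 for Gpt, 38.9 for Oat, 448 for Arg1, 2.71 for Mup11, 43 for Mup19, 4.15 for Mup16, 59.4 for Mup2 and 199 for Gnmt. The same library was lowest at 222 for Hgd, 115 for Cth, 104 for Aass, 421 for Tdo2, 37.6 for Pcca, 168 for Aldh4a1, 80 for Agxt2 and 108 for Bckdha. Its further low values were 167 for Ftcd, 17.4 for Auh, 382 for Got2, 145 for Asl, 483 for Slc38a4, 409 for Slc38a3, 312 for Pcx and 83.7 for Gckr. It also stood lowest at 67.5 for Cyp7a1, 234 for Cyp27a1, 103 for Nr1h4, 2377.8 for Scp2, 2.49 for Orm3, 94.7 for Ugt2b1, 72.2 for Cyp2c54 and 0.665 for Slc22a3. It was the highest of its group at 28.6 for Fgf21, 42.9 for H19, 5.15 for Sdsl, 5.32 for Psat1, 442 for Atf5, 2394.1 for Cp and 44.8 for Akt1. Antibody replicate 3 was the highest at 164 for Cela1 and the lowest at 172 for Fads2.

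Among the controls, replicate 9 was the lowest at 1.04 for Fgf21, 1.29 for Treh, 0.194 for Fos, 3.63 for Slc1a4, 573 for Ldha and 527 for Elovl5. Control replicate 10 was the lowest at 97.8 for Prkar1a, 48.9 for Slc38a2 and 189 for Ugt2b1, and the highest at 10.1 for Sdsl. Control replicate 3 was the lowest at 20.1 for Crebbp, replicate 4 at 0.063 for Tmem266, and replicate 6 was the highest at 65.3 for Gaa. Which property of these libraries moves the values was not tested.

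The antibody's log2 change in Control AAV livers minus that in Prkar1a KD livers was called in edgeR's interaction test (adjusted p under 0.05) for 79 of the genes reported here. It was negative for 58, beginning with -2.17 for Got1, -1.57 for Gls2, -0.86 for Tat, -1.63 for Sds, -1.81 for Oat, -0.73 for Arg1, -1.26 for Pck1, -5.11 for Mmd2, -3.77 for Cyp17a1 and -3.61 for Gprc5b. Next came -3.27 for Tmem266, -2.47 for Cyp2a22, -2.56 for Nptx1, -2.45 for Treh, -1.86 for Ctcflos, -1.44 for Pde4b, -0.53 for Adcy6, -1.44 for Nr4a2, -0.77 for Sdsl and -0.69 for Cbs. Further negative differences were -0.71 for Gnmt, -0.71 for Hgd, -0.64 for Cth, -0.58 for Aass, -0.43 for Pcca, -0.54 for Aldh4a1, -0.54 for Agxt2, -0.34 for Bckdha, -0.37 for Ftcd and -0.33 for Auh. The list went on with -0.74 for Slc25a22, -0.62 for Slc25a15, -0.58 for Asl, -1.2 for Slc7a2, -0.64 for Slc38a4, -0.66 for Slc38a3, -0.92 for Fbp1, -0.94 for Slc25a10, -0.45 for Eno1 and -0.52 for Gpd1. Also lower were -0.36 for Ldha, -0.44 for Mpc1, -0.34 for Pcx, -3.21 for Ppp1r3g, -0.66 for Ugp2, -1.27 for Elovl5, -0.98 for Me1, -1.14 for Fads1, -1.07 for Fads2 and -0.7 for Crat. The last were -0.5 for Acads, -0.4 for Scp2, -0.7 for E2f1, -0.76 for Ugt2b1, -0.95 for Slc22a3, -1.04 for Etnppl, -0.39 for Ndufa10 and -0.34 for Cox7a2. The difference was positive for 21 genes, with 0.67 for Rapgef4, 0.77 for Slc7a5, 2.67 for Selenbp2, 2.23 for Cav1, 1.95 for Smad9, 1.17 for Cyp2c70, 0.51 for Apom, 1.69 for Enho, 1.18 for Inhba, 1.14 for Hamp and 0.41 for Xbp1. The others were 0.9 for Ifi47, 1.63 for Cd14, 0.47 for Serpina3n, 0.5 for Cp, 1.35 for Mup20, 0.57 for Ctsc, 0.79 for Stab2, 1.43 for Eif4ebp3, 1.41 for Eif4e3 and 0.56 for C1ra.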

How the results depend on the processing

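The counts of 375 rises and 677 falls were 384 and 658 with RLE scaling, 348 and 561 with no filter on low counts, 491 and 758 with DESeq2, and 386 and 660 with limma-voom. They dropped to 241 and 367 when the fit held the 20 Control AAV libraries alone, which leaves fewer samples to estimate the spread. Leaving out 1 library gave 294 to 498 rises and 502 to 835 falls. Without antibody replicates 2 and 3 together, 17 of the 159 named genes crossed the threshold and were no longer called. The difference from Prkar1a KD livers was called for 524 genes, for 517 with RLE scaling, 473 with limma-voom and 614 without those 2 libraries.

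Changes of sign were limited to genes that were not called. Without 1 library Gcgr ranged from -0.076 to 0.006, Prkacb from -0.072 to 0.016 and Slc38a2 from -0.004 to 0.103. Without antibody replicates 2 and 3 Prkacb was at 0.057 and Gpt2 at 0.031. The cause was not tested. Of the 159 named genes, 42 fell short of the threshold in the Control AAV fit, 15 with limma-voom, 13 with no filter and 4 with DESeq2. In the Control AAV fit 113 kept their result, and the few others did not pass the filter on low counts there.

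Replicate numbers are shared by the groups but did not pair the libraries: the correlation of deviations from the group means ran from -0.11 to 0.4 over 10 pairs, was over 0.1 in 3, and was the best match in 1. With the replicate block 370 rises and 669 falls were called, and 6 named genes were no longer called.

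At 11550000 counts or more per library, genes near 1 CPM rest on few counts, which limits Tmem266, Nptx1, Ppp1r3g and Nr4a2. The same holds for the receptor antibody values of Gprc5b and Mmd2.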

Other observations

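The male-biased Mup11 and the female-biased Cyp2a4 varied in opposite directions among the control libraries. Control replicates 1, 3, 6 and 9 had Mup11 at 122, 137, 403 and 307 CPM and Cyp2a4 at 1.52, 3.14, 0.601 and 2.27 CPM. The other 6 controls had Mup11 at 9.71 to 36.6 CPM and Cyp2a4 at 4.82 to 31.8 CPM. Of the receptor antibody libraries, replicate 2 had Mup11 at 2.71 and Cyp2a4 at 21.7 CPM, and the other 9 had Mup11 at 130 to 3052.3 CPM and Cyp2a4 at 0.533 to 2.27 CPM. Cyp2a4 was not called with the antibody, at a log2 change of -2.07 ± 0.76 (adjusted p = 0.0845, edgeR). Both genes have close copies among which reads could be split.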
